A study of Mus musculus with 2 samples.

Results

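The miR-10 and miR-196 microRNAs are encoded within the Hox gene clusters. They were measured in G2N2C cells, a mouse line of basal cell carcinoma (BCC), with D3 interfered and in their controls. Members were chosen by name from the mouse probes of the array, as any arm of mmu-miR-10a, mmu-miR-10b, mmu-miR-196a or mmu-miR-196b. This gave 5 of the 373 mouse miRNAs compared: miR-10a, its passenger arm miR-10a*, miR-10b, miR-196a and miR-196b, each with 1 probe, and all 5 had values on both arrays. The D3-interfered group was G2N2C cells given the Stealth-D3 oligonucleotide, and the control group was the same cells given Stealth-ctr. All cells were kept in low calcium with 8% chelated serum and keratinocyte growth factor, and were collected 48 h after transfection. D3 is the type 3 deiodinase, the enzyme that inactivates thyroid hormone. RNA of 3 experiments was pooled per condition, and the same pair of pools was hybridised to 2 two-colour arrays: array 1 with Stealth-D3 in Cy3, and array 2 with the dyes exchanged. The model is a single cell line. Dio3, the gene of D3, codes for no miRNA and was not analysed here, so these data hold no check of the interference. Each condition is thus 1 sample, the SDs below are technical SDs over the 2 arrays, and no test between conditions was possible.

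A miRNA acts mainly through its seed, bases 2 to 8, which pairs with target transcripts. The Hox genes encode transcription factors that give cells their position along the body axis, and their clusters also hold miRNA genes. miR-10 and miR-196 repress Hox transcripts, among them HOXD10 for miR-10b in human breast cancer cells and Hoxb8 for miR-196 in the mouse embryo. Both families are also known as miRNAs whose levels vary between tumours.

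The mature sequences show which members share a seed and how close the members of a pair are. They are taken from RefSeq, GRCm38.p6, written 5′ to 3′, with the seed in capitals. All 5 members were matched. The array names of the miRNAs shown here carry no 5p or 3p, so the unstarred name was read as the 5p arm and the star as the 3p arm.
miR-10a: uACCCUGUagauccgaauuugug
miR-10b: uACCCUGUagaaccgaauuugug
miR-10a*: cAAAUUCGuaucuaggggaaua
miR-196a: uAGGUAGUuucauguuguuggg
miR-196b: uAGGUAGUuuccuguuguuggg
miR-100: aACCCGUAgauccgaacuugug
miR-99a: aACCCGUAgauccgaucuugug
miR-99b: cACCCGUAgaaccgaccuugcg
let-7a: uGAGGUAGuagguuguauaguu
miR-10a and miR-10b shared their seed and differed at 1 of 23 bases, U12A, counted from 1 at the 5′ end of miR-10a. miR-196a and miR-196b likewise shared a seed and differed at 1 of 22 bases, A12C, counted from the 5′ end of miR-196a. Each of these seeds was held by 2 of the 1679 mature miRNAs of the RefSeq table, so each pair is a seed group of its own. miR-100, miR-99a and miR-99b are sequence relatives of miR-10 and are shown because their ratios are set against it below. miR-10a and miR-100 share an unbroken run of 11 bases, but it starts 1 base later in miR-10a, at position 7 against 6, and the seeds therefore differ. let-7a is shown because its bases from position 3 onward hold the 7-base seed of miR-196.

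The miR-10a gene was the only member gene with both arms on the array. Its hairpin of 110 bases lies at chr11:96317165-96317274 on the plus strand of GRCm38.p6, and is given with the arms at bases 22 to 44 (miR-10a) and 63 to 84 (miR-10a*) in capitals, since both were measured.
Mir10a: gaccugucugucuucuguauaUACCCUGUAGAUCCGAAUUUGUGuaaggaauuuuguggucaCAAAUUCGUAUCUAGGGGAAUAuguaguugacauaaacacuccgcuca
In the RefSeq annotation Mir10a lies inside the span of Hoxb3, between Hoxb5 and Hoxb4 on chromosome 11. Mir10b lies inside the spans of Hoxd3 and Hoxd4, next to Hoxd8, on chromosome 2, at chr2:74726070-74726137 on the plus strand. miR-196a has 2 genes with the same mature sequence, so its probe reads their sum. Mir196a-1 lies between Hoxb13 and Hoxb9 at chr11:96265164-96265265, and Mir196a-2 between Hoxc10 and Hoxc9 at chr15:102973350-102973434, both on the plus strand. Mir196b lies between Hoxa9 and Hoxa10 at chr6:52230081-52230165, on the minus strand.

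The value table of the authors holds 1 dye ratio per array, taken as log2. Each pool's dye is known from the labels, but no source used here names the numerator dye. Array 1 was therefore turned, so that both arrays run the same way and a positive value points the way of miR-21, the miRNA with the highest mean (3.08 and 4.12 on the arrays). A positive value means more of the miRNA in the D3-interfered pool than in the control pool if red is the numerator, and less if green is. Values are therefore placed on the side of miR-21 or opposite to it, with no direction. The rule of size asked for equal signs on the arrays and a mean of at least 1.5-fold, 0.58 on the log2 scale. Across the 373 mouse miRNAs, which are not independent, the turned arrays had a correlation of -0.077 as deposited. It was 0.43 once a trend on brightness, described below, was removed. With the sign of 1 array exchanged, 39 miRNAs passed the rule as deposited, against 45 with the signs as labelled. With the trend removed these counts were 12 and 50.

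None of the 5 members passed the rule of size, where 12.1% of all 373 mouse miRNAs did, 3.22% on the opposite side and 8.85% on the side of miR-21. Of the 45 miRNAs past the rule, 44 were at or above the median average log2 intensity of 7.16. miR-10b, miR-10a* and miR-196b were dimmer than that median, so the 12.1% is not a like background for them. The 3 miR-10 miRNAs had negative ratios on both arrays and the miR-196 miRNAs had ratios of opposite sign. miR-10a lay farthest from 0, 1.45-fold on the side opposite to miR-21. The median of the 5 was -0.18, against 0.080 over all 373. These counts rest on few members, and the members of a pair differ by a single base.

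miR-10a (mmu-miR-10a), the HoxB member of its seed group, had log2 ratios of -0.61 on array 1 and -0.46 on array 2. The arrays lay close together on the same side, with a mean of -0.53 ± 0.10. It was the 23rd lowest of the 373 miRNAs, and 69 miRNAs lay at least as far from 0 on either side. The mean missed the threshold narrowly. At 1.3-fold, miR-10a was the 1 member past the rule, where 5.36% of the 373 passed on that side. With each array centred on its median it was -0.60 and passed the rule, where 4.56% of the 373 passed on that side. On array 1 alone its ratio was past the threshold, as were 52 of the 373 on that side, miR-10a among them. On array 2 alone it was not.

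miR-10b (mmu-miR-10b), the HoxD member with the same seed, had log2 ratios of -0.12 on array 1 and -0.49 on array 2. Both were on the side of miR-10a, with a mean of -0.31 ± 0.26, the 37th lowest. The difference between miR-10a and miR-10b, miR-10a minus miR-10b, was -0.48 on array 1 and 0.033 on array 2, so their order was not the same on the arrays. How far the probes of sequences 1 base apart read each other's target was not tested.

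miR-10a*, the arm opposite miR-10a in the same hairpin, had log2 ratios of -0.066 and -0.30, with a mean of -0.18 ± 0.17. It lay on the same side as miR-10a and closer to 0 on each array, since miR-10a minus miR-10a* was -0.54 on array 1 and -0.16 on array 2. The sequences of the arms have no shared run above 4 bases, so the probes of the arms have little sequence in common. Its mean was only slightly larger than its SD.

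miR-196a (mmu-miR-196a), the product of a HoxB and a HoxC gene, had log2 ratios of -0.13 on array 1 and 0.12 on array 2. The values lay on different sides of 0 and gave a mean of -0.0038 ± 0.17. miR-196b (mmu-miR-196b), the HoxA member of the seed group, had 0.24 and -0.17, with a mean of 0.039 ± 0.29. The signs of miR-196a and miR-196b were exchanged between the arrays, and neither mean exceeded its SD. Opposite signs on the arrays were common, found for 54.7% of the 373 miRNAs.

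**Figure D1:**
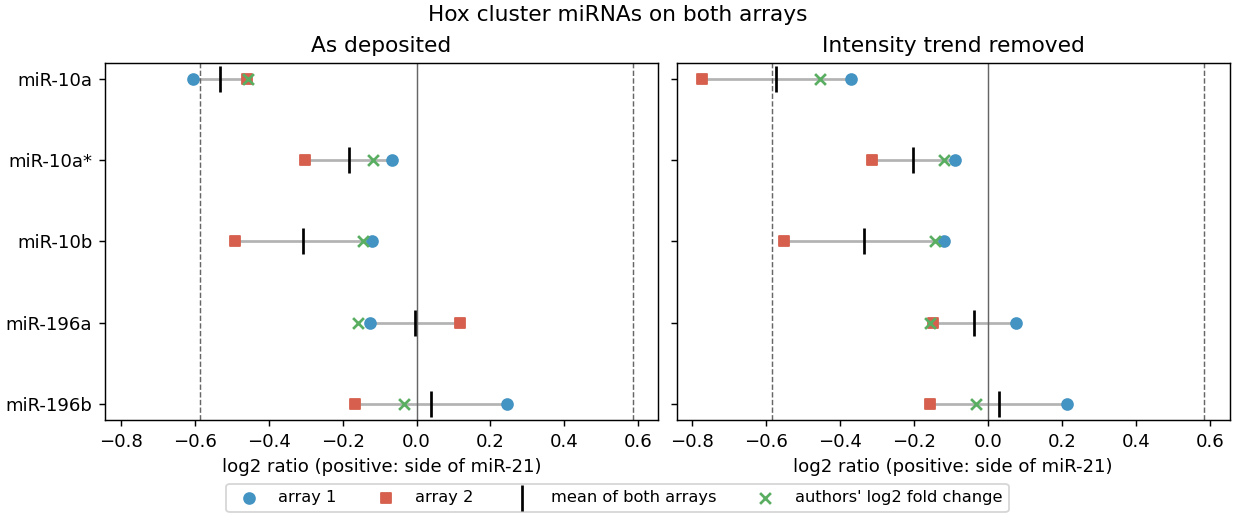
Log2 ratios of the 5 members (rows) on array 1 (circles) and array 2 (squares), with the mean (bar) and the authors' log2 fold change (cross), as deposited (left) and with the intensity trend removed (right). Positive values lie on the side of miR-21 and dashed lines mark 1.5-fold; miR-10a, miR-10a* and miR-10b lie below 0 on both arrays in both panels, and the arrays of miR-196a and miR-196b straddle 0.

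Negative ratios on both arrays were found for 3 of the 5 members, where the background was 16.4% of the 373 miRNAs. All 3 belong to miR-10, from 2 genes. Positive ratios on both arrays were found for 0 of 5, against 29% of the 373. The share of members is above the background, but 2 of the 3 differ by 1 base and the third shares a hairpin with one of them, so they are not separate observations of the pools.

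The deposited ratios depended on brightness, with correlations across the 2101 probes, which are not independent, of 0.51 on array 1 and 0.57 on array 2 between the unturned ratio and the authors' average log2 intensity. At the brightness of miR-10a, 8.22, a smooth trend stood at -0.23 on the turned array 1 and 0.32 on array 2. With it removed, miR-10a had -0.37 and -0.77, a mean of -0.57 ± 0.29 (1.49-fold), again the 23rd lowest. The mean thus hardly moved, while the arrays lay further apart, with array 2 now the farther from 0. miR-10b had -0.12 and -0.55 with the trend removed, a mean of -0.34 ± 0.31, and miR-10a* had -0.091 and -0.32, a mean of -0.20 ± 0.16. The same 3 members were negative on both arrays, against 22% of the 373 after this step. In this version miR-10a was lower than miR-10b on each array, by differences of -0.25 and -0.22, a mean of -0.24 ± 0.020.

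miR-196a had 0.075 and -0.15 with the trend removed, and miR-196b 0.21 and -0.16. Their arrays still lay on different sides of 0, as they did before it was removed. The difference of miR-196a minus miR-196b was then -0.14 and 0.0079, and no order between them was seen on both arrays. Set against miR-196a, whose probe reads a HoxB and a HoxC gene together, miR-10a was lower on each array. The difference of miR-10a minus miR-196a was -0.48 and -0.58 as deposited, a mean of -0.53 ± 0.069. With the trend removed it was -0.45 and -0.63. No member passed the rule of size after this step, where 13.4% of the 373 did.

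**Figure D2:**
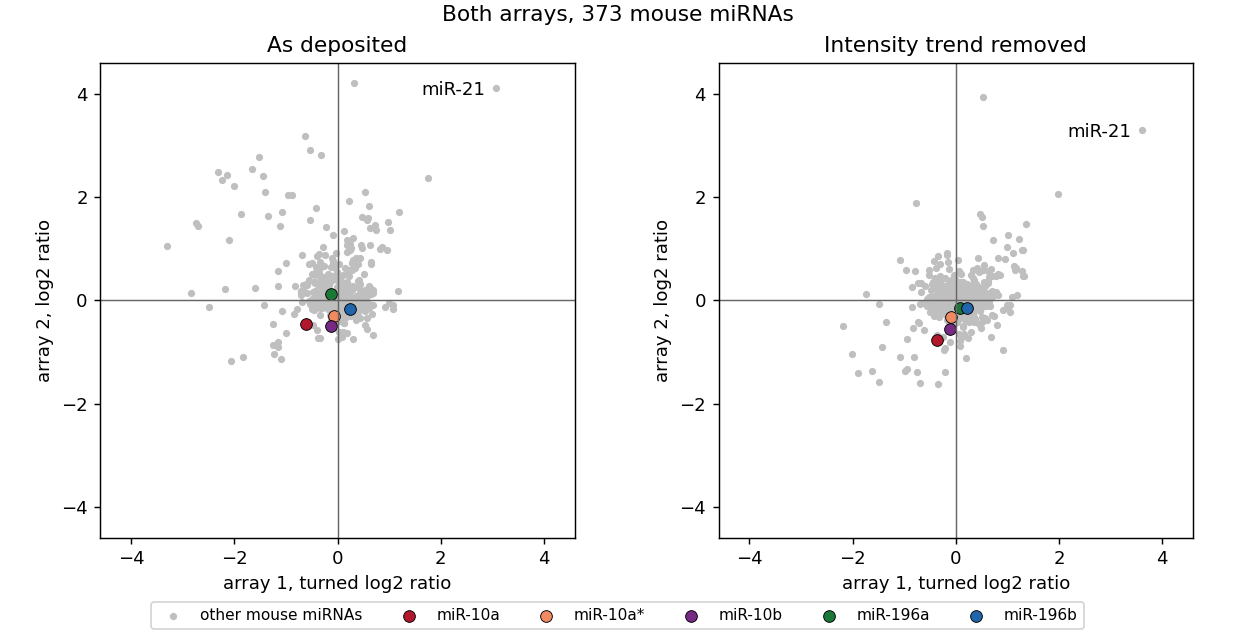
Turned log2 ratio on array 1 (x axis) against array 2 (y axis) for 373 mouse miRNAs (grey), as deposited (left) and with the intensity trend removed (right); coloured points are the 5 members. The miR-10 miRNAs lie on the negative side of both axes, opposite miR-21. miR-10a* lies near the centre, as the miR-196 miRNAs do.

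In the authors' deposited table all 5 members have a negative log2 fold change, where 54.7% of the 373 miRNAs do. The value is -0.46 for miR-10a, which the table also writes as a signed fold change of -1.37. It is -0.14 for miR-10b, -0.12 for miR-10a*, -0.16 for miR-196a and -0.033 for miR-196b. The sign was that of the mean of both arrays for 4 of the 5, the exception being miR-196b. None reached 1.5-fold in the authors' deposited table, as 9.38% of the 373 did. The authors' deposited table also gives unadjusted p-values, whose replicates are not stated and which can rest only on repeated measurement of 1 pair of pools. That of miR-10a was 0.00773, and 43 of the 376 mouse probes had one at or below it. Adjusted here over all 1677 probes by Benjamini and Hochberg, the p-value from the authors' deposited table was 0.0982 for miR-10a and 0.459 for miR-10b, and it was larger for the other members.

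Brightness limits what the ratios near 0 can show. The brightest probe that lacks a fold change in the authors' table has an average log2 intensity of 6.99. miR-196b, at 6.73, was below that limit, and 349 of the 373 miRNAs were at least as bright. miR-10a* at 7.04 and miR-10b at 7.14 were just above it and below the median of 7.16. miR-10a at 8.22 and miR-196a at 8.02 were clear of it, with 90 and 104 of the 373 at least as bright. For the dim probes, a ratio near 0 does not show that the pools had the same level.

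**Figure D3:**
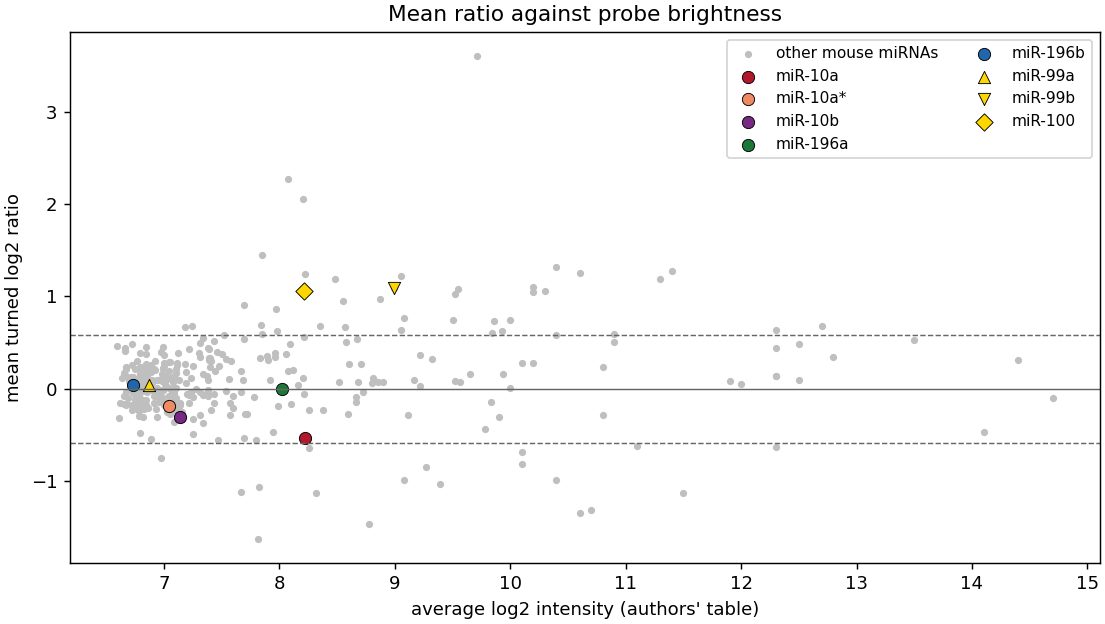
Mean turned log2 ratio (y axis) against the authors' average log2 intensity (x axis) for 373 mouse miRNAs (grey), the 5 members (circles) and the sequence relatives of miR-10 (yellow); dashed lines mark 1.5-fold. miR-10a at 8.22 and miR-100 at 8.21 have nearly the same brightness and lie on opposite sides of 0, while miR-10a*, miR-10b and miR-196b lie among the dim probes.

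Part of the sequence relatives of miR-10 lay on the other side. Of the 3 relatives, miR-100, miR-99a and miR-99b, 2 passed the rule of size, both toward miR-21, and none opposite. Over all 373 miRNAs 8.85% passed toward miR-21 and 3.22% opposite. miR-100, a relative of miR-10 outside the Hox clusters, had log2 ratios of 0.75 and 1.36, a mean of 1.05 ± 0.43. miR-99b had 0.72 and 1.46, a mean of 1.09 ± 0.52. miR-99a had 0.13 and -0.053 and did not pass. Neither did miR-99b*, the other arm of the miR-99b hairpin, with -0.10 and 0.47. The difference of miR-10a minus miR-100 was -1.36 on array 1 and -1.81 on array 2, a mean of -1.59 ± 0.32, and with the trend removed -1.36 and -1.82. The authors' deposited table gives -1.05 for this difference. The ratios of miR-10a and miR-100 thus differed by more than the technical SD, with a shared run of 11 bases; this pair was chosen after its values were seen.

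The let-7 and miR-98 hairpins had none of 13 measured arms past the rule, where 12.1% of the 373 miRNAs passed. In the 9 unstarred arms, which carry the let-7a seed as 5p arms in RefSeq, the median was 0.10 as deposited. It turned to -0.11 once the trend was taken out, and it is -0.12 by the fold changes of the authors' deposited table, so its side was not settled. These 9 ran from -0.54 ± 0.26 for let-7f to 0.59 ± 0.96 for let-7i. The 4 starred arms had a median of -0.091. The other Hox cluster miRNA on the array, miR-615-3p, whose gene lies inside Hoxc5, had -0.22 and 0.10, a mean of -0.060 ± 0.23. Like the miR-196 miRNAs it had ratios of opposite sign on the arrays. Of the Hox cluster miRNAs measured, those with a ratio of the same sign on both arrays were thus miR-10a, miR-10a* and miR-10b.

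**Figure D4:**
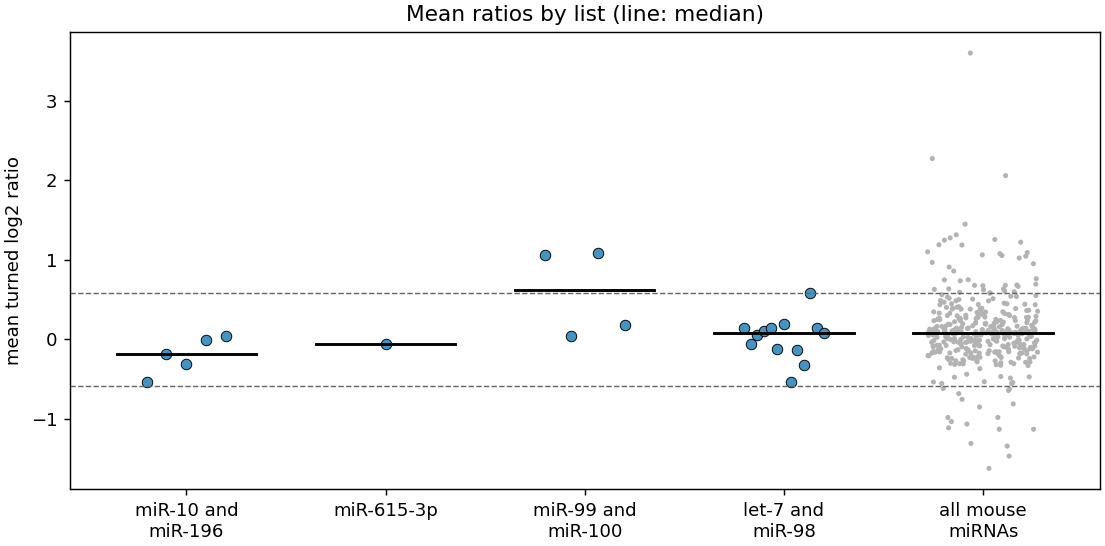
Mean turned log2 ratios (y axis) of the miR-10 and miR-196 miRNAs, miR-615-3p, the miR-99 and miR-100 miRNAs, the let-7 and miR-98 miRNAs (starred arms included), and all 373 mouse miRNAs; points are miRNAs, lines are medians and dashed lines mark 1.5-fold. The members run from -0.53 to 0.039, and the 2 miRNAs past the rule in the related lists are miR-100 and miR-99b.

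The miRNAs whose pair of ratios was most like each member were found by the Euclidean distance over the 2 arrays, a likeness that rests on only these 2 values. For miR-10a they were miR-148a at a distance of 0.017, miR-32 at 0.14 and miR-338-5p at 0.23. With the trend removed, miR-32 was the nearest of 368 and miR-148a ranked 18. For miR-10b they were miR-20b at 0.052, miR-376b* at 0.12 and miR-106b* at 0.13. For miR-10a* they were miR-188-5p at 0.047, miR-679 at 0.051 and miR-705 at 0.090. For miR-196b they were miR-101a* at 0.064, miR-335-3p at 0.066 and miR-680 at 0.074. For miR-196a they were miR-697 at 0.0093, miR-488* at 0.049 and miR-684 at 0.055, but these ranked 150, 160 and 171 with the trend removed, so their likeness did not hold there.

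Marker miRNAs of keratinocytes, the epithelial cells of the skin, and of other cell types were read beside these values. Of 7 keratinocyte miRNAs all were measured, with a median of -0.33 and a range from -1.03 to 0.089. The 3 past the rule, miR-141, miR-200b and miR-200c, lay opposite to miR-21, the side of miR-10a, where 3.22% of the 373 passed. The other 4 did not pass, among them miR-203 with -0.50 and -0.16. miR-205, the brightest of the 7 with an average log2 intensity of 11.9, had -2.31 and 2.49 and did not pass either. Of 6 fibroblast miRNAs 4 were measured, with a median of 0.18. Of these only miR-143 passed the rule, toward miR-21 at 2.06, where 8.85% of the 373 passed on that side. Of 4 blood cell miRNAs 3 were measured, with a median of -0.038 and none past the rule. The part of these in the ratios of miR-10a and miR-10b was not tested.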

How the data were processed

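The members and lists were chosen with earlier results of these data known. The authors deposited 1 processed dye ratio per feature and array, taken as log2, for 2244 features. Scale, centring and dye order are not stated, and the column medians were 0.039 and 0.040. The base is not stated. Log2 was taken because the turned mean, regressed on the authors' log2 fold change, had a slope of 1.07 across 1677 probes and 1.24 across the 155 at average intensities from 9 to 12, where log2 values on the same scale would give 1, natural logs 0.693 and log10 0.301. Folds computed from the array ratios rest on this base and are approximate. That table, per the file headers, holds 4 values for each of 2101 probes: the log2 fold change, the mean log2 intensity, a p-value with no adjustment, and the fold change with a sign, read as a score. The authors deposited no fold change for 424 of these. No source used here gives the image analysis, background correction or normalization.

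Labelled RNA of both pools was hybridised to arrays of locked nucleic acid probes, and both arrays count as 1 replicate. Array 1 was turned, both were averaged, and probes of 1 miRNA were averaged. Used were 376 mouse probes with a fold change, for 373 miRNAs. The trend was a lowess fit (span 0.3) over all 2101 probes. Named are every member, the related miRNAs that describe a count, and the 3 nearest miRNAs of each member. The rule of size and the trend removal were run on simulated arrays with planted changes. Their noise was smaller than the median technical SD of the 373 miRNAs, 0.26 with the trend removed, so this run gives no error rate for these data. Tools were Python 3.11.15, pandas 2.3.3, NumPy 2.4.6, statsmodels 0.14.6, SciPy 1.17.1 and matplotlib 3.10.9. The number of arrays limits the precision. Alternatives were each array alone, centred arrays, the trend removed, the authors' fold change, other thresholds, no demand on signs, the dominant arm, and other sets of probes.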

Additional observations from a re-analysis of the deposited data

How the results depend on the processing

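The mean ratios of the 5 members moved by less than their technical SD under 3 alternatives: centred arrays, no trend, and the authors' deposited table. Centring moved all 5 by the same amount. The trend averaged over both arrays was only 0.012 to 0.041 for the members, where their smallest SD was 0.10. These 2 alternatives could thus hardly move a mean past its SD. miR-196b, at 0.039, took the other sign with centred arrays (-0.031) and in the authors' deposited table (-0.033). A single array lies within that SD by construction. The median of the members moved no more than the spread between the arrays under any of the 7 alternatives run. Including probes without a fold change, 1 of the 7, could not move it, since no member probe lacked a fold change. The count of members past the rule of size, 0, became 1 with the arrays centred and 1 at 1.3-fold, miR-10a each time, and ran from 0 to 1 over single arrays. Among the related miRNAs the count of 2 ran from 6 to 8 over single arrays. Among all mouse miRNAs the count of 45 ran from 85 to 104 over single arrays, where signs play no part, and was 73 at 1.3-fold, 22 at 2-fold and 120 over all features with a fold change. The share of these on the side of miR-21 was 73.3%, 62.2% with the arrays centred, 60% with the trend removed, and 40% by the fold changes of the authors' deposited table. No paired analysis was possible because each condition is 1 pool.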
